A study of Mus musculus with 12 samples.

Results

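The transcripts of 2 genes, Itgb2 and Itgal, were followed through 12 RNA-Seq libraries of sorted mouse regulatory T cells (Treg). Their rows were found by gene name in the table of each library, which made 2 of the 41457 genes listed there. The libraries formed 4 groups of 3. CD18Foxp3 Treg came from mice whose floxed CD18 alleles were recombined by Cre expressed from the Foxp3 locus, and CD18wt Treg came from littermates with the same Foxp3 Cre and wild-type CD18 alleles. Mice of both genotypes carried a ROSA26 RFP reporter switched on by Cre, and splenic RFP+CD4+ cells were sorted, so that the sort itself depended on Cre activity in both genotypes. Unstimulated cells had been kept overnight in IL-2 at 5 U/mL, and stimulated cells had in addition received antibodies to CD3 at 1 μg/mL and to CD28 at 2 μg/mL. The age and sex of the RNA-Seq mice were not given in the sources used here, and the labels call the libraries of a group biological replicates. The study describes transcript values of these Treg as coming from separate mice, so the p-values measure the spread between the mice of a group.

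β2-integrins are surface receptors made of a shared β chain, CD18, and 1 of several α chains. Itgb2 encodes CD18, and Itgal encodes CD11a, which joins CD18 in the endoplasmic reticulum to form LFA-1, the main β2-integrin of T cells. LFA-1 binds ICAM molecules on antigen-presenting cells and on endothelium once signals from the T cell receptor or from chemokine receptors have turned it to its high-affinity form through Rap1, talin and kindlin-3. An α chain without its β chain is not brought to the cell surface. The comparison of genotypes asked how far the deletion had lowered the Itgb2 transcript and whether the transcript of its partner changed with it, and the comparison of cultures asked how both transcripts responded to T cell receptor and CD28 stimulation.

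Itgb2 (ENSMUSG00000000290) lies on the plus strand of chromosome 10 of GRCm38 from 77530252 to 77565708, with 25 annotated exons of 3052 bases in 5 transcripts. Itgal (ENSMUSG00000030830) lies on the plus strand of chromosome 7 from 127296260 to 127335138, with 42 annotated exons of 6569 bases in 6 transcripts. No other annotated gene overlapped either of them, and every exon read of both genes had been placed uniquely. By the study's methods, Cre removes exon 3 of CD18. In the full-length transcript Itgb2-201 (2970 bases, 16 exons) exon 3 covers 89 bases, and the annotated short transcript Itgb2-202 joins exon 2 directly to exon 4. Exon 3 made up 2.92% of the annotated exon bases of Itgb2, and 5.05% of the 59-base words of Itgb2-201, as long as the sequencing reads, held at least 1 of its bases. The gene tables give reads per gene and not per exon, so reads of exon 3 itself were not analysed here.

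The libraries held 10665174 to 19005482 exon reads, and introns took 3.32% to 5.99% of the reads in genes. Replicates of a group differed by more than counting error (chi-square per gene 6.11 to 64.3), and no pair looked like repeats of 1 library. All 6 Treg markers examined were detected in each group, with Foxp3 at 73.4 to 108 TPM (transcripts scaled to the same sum in each library) in CD18wt and 97.3 to 102 TPM in CD18Foxp3 unstimulated libraries. Markers of other cells were low in comparison, with summed levels of 5 B cell markers of 27.4 to 30.8 TPM in CD18wt and 22.6 to 30.4 TPM in CD18Foxp3 unstimulated libraries, and of 5 myeloid markers of 4.66 to 15.8 and 1.58 to 7.20 TPM.

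The targeted gene was examined first. In unstimulated Treg, Itgb2 stood at 465, 431 and 387 TPM in the CD18wt libraries, from 9005, 8861 and 4796 exon reads. In the CD18Foxp3 libraries it stood at 229, 257 and 234 TPM, from 4992, 4525 and 4441 exon reads. Every CD18Foxp3 library lay below every CD18wt library, yet at least 4441 exon reads of the gene remained in each of them. These reads cover all exons of the gene and do not separate transcripts with and without exon 3. They do not measure CD18 protein, and the study reports loss of CD18 and of surface CD11a from FOXP3+ cells by flow cytometry. Among the 11829 genes tested, 6.9% had all CD18Foxp3 libraries under all CD18wt libraries in TPM. The mean was 428 ± 39.2 TPM (SD, n = 3) in CD18wt and 240 ± 15.0 TPM (SD, n = 3) in CD18Foxp3 Treg. Itgb2 exon reads fell by 0.85 on the log2 scale, to 0.553 times the control level (SE 0.09, adjusted p = 0.00408 by the quasi-likelihood test of edgeR). This made it 1 of 16 genes past the threshold of a 1.5-fold change and an adjusted p of at most 0.01, which 0.135% of the tested genes reached. The estimate moved little when single libraries were left out, between -0.92 and -0.80, but the adjusted p then ran from 5.88e-05 to 0.0460 and the call was lost in 5 of the 6 cases, all but the one without CD18wt replicate 3. It was also lost with limma on log2(TPM + 1), at an adjusted p of 0.0172, and in a fit of all 12 libraries, at 0.0391.

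**Figure D1:**
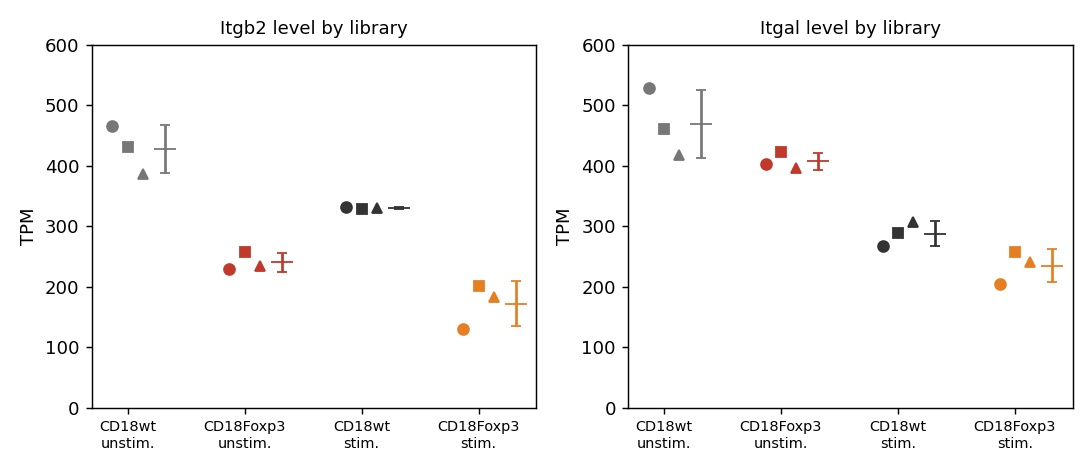
Level of Itgb2 (left) and Itgal (right) in TPM in each library of the 4 groups, with circles, squares and triangles for replicates 1, 2 and 3 and a dash with bars for the mean and SD (n = 3). Itgb2 lies lower in each CD18Foxp3 group than in the CD18wt group of the same culture, at 229 to 257 against 387 to 465 TPM without stimulation, while both genes lie lower after stimulation.

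In stimulated Treg, Itgb2 stood at 331, 329 and 330 TPM in the CD18wt libraries (3895, 5761 and 5186 exon reads) and at 131, 202 and 183 TPM in the CD18Foxp3 libraries (2531, 3423 and 2863 exon reads). The genotypes again did not overlap, and CD18Foxp3 replicate 1 was the lowest of all 12 libraries. All CD18Foxp3 libraries lay under all CD18wt libraries in 4.41% of the genes in this culture, and in 0.78% of genes in both cultures. The CD18wt libraries agreed closely, with a mean of 330 ± 1.16 TPM (SD, n = 3), whereas the CD18Foxp3 libraries spread more widely, with a mean of 172 ± 36.7 TPM (SD, n = 3). Over all genes, stimulated CD18Foxp3 replicate 1 differed from replicates 2 and 3 (chi-square per gene 58.9 and 64.3) more than those did from each other (11.9). The log2 difference was -0.94 (SE 0.17), against -0.85 in unstimulated cells, and did not pass the threshold (adjusted p = 0.216, edgeR quasi-likelihood test). No gene did in this comparison, or 0.0%, although 583 of 11930 genes had an unadjusted p under 0.05. DESeq2 called 22 genes there, Itgb2 among them with an adjusted p of 0.000366, and the edgeR test without a filter on low counts called 61, with 0.000152 for Itgb2. The test of whether the genotype difference changed with stimulation gave a log2 value of -0.09 (SE 0.20, adjusted p = 0.988).

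Itgal encodes the partner chain. In unstimulated Treg its level was 528, 461 and 417 TPM in the CD18wt libraries and 402, 423 and 397 TPM in the CD18Foxp3 libraries. The genotypes overlapped, since CD18Foxp3 replicate 2 lay above CD18wt replicate 3. In stimulated Treg the level was 267, 288 and 308 TPM in the CD18wt and 205, 258 and 241 TPM in the CD18Foxp3 libraries. Here the genotypes did not overlap, with every CD18Foxp3 library lower as in 4.41% of genes, but the lowest CD18wt and the highest CD18Foxp3 library lay close to each other. The log2 difference between genotypes was -0.22 (SE 0.10, adjusted p = 0.492) without and -0.29 (SE 0.14, adjusted p = 0.998) with stimulation (edgeR quasi-likelihood test). Neither difference passed the threshold. Both stayed negative with each library left out, at -0.27 to -0.14 without and -0.35 to -0.21 with stimulation. The study describes Itgal mRNA as slightly decreased in CD18Foxp3 Treg. In order of the mean, Itgb2 was highest in unstimulated CD18wt Treg, followed by stimulated CD18wt, unstimulated CD18Foxp3 and stimulated CD18Foxp3 Treg. Neighbours in this order did not overlap, but the share of all genes with such an order was not counted. Itgal was ordered first by culture, with unstimulated above stimulated cells and, within each culture, CD18wt above CD18Foxp3, and the unstimulated groups overlapped.

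Since the genes were measured in the same libraries, the ratio of their TPM does not depend on library scaling. Without stimulation the Itgb2 to Itgal ratio was 0.881, 0.934 and 0.927 in the CD18wt libraries and 0.570, 0.608 and 0.589 in the CD18Foxp3 libraries. With stimulation it was 1.24, 1.14 and 1.07 in the CD18wt and 0.640, 0.783 and 0.760 in the CD18Foxp3 libraries. The 4 groups did not overlap in the ratio, which lay lower in CD18Foxp3 than in CD18wt libraries and higher after stimulation than before it. The share of other gene pairs whose ratios separate in this way was not counted, so how unusual this pair is remains unknown. The group means were 0.914 ± 0.029 and 0.589 ± 0.019 without and 1.15 ± 0.086 and 0.727 ± 0.077 with stimulation (SD, n = 3 each). On the log2 scale the ratio differed between genotypes by -0.63 without and by -0.67 with stimulation (exact two-sided permutation tests, p = 0.1 each, the smallest that 3 libraries against 3 allow). The absolute ratio depends on the gene models used for length. With the lengths of Itgb2-201 and Itgal-202 (5222 bases) in place of all annotated exons, an alternative chosen after seeing the data, the mean in stimulated CD18wt Treg was 0.941 instead of 1.15, while differences between groups on the log2 scale stay the same by construction.

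**Figure D2:**
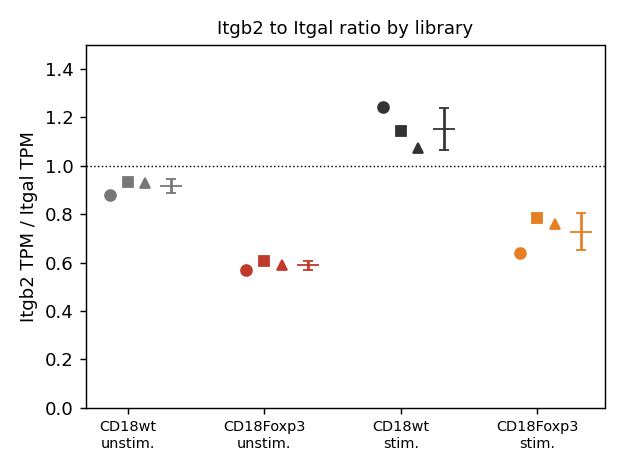
Ratio of Itgb2 TPM to Itgal TPM in each library, with symbols for replicates 1, 2 and 3, a dash with bars for the mean and SD (n = 3), and a dotted line at equal levels. The ratio is 0.570 to 0.608 in unstimulated and 0.640 to 0.783 in stimulated CD18Foxp3 libraries, below the 0.881 to 1.24 of the CD18wt libraries, and stimulation raises it in both genotypes.

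The level of both transcripts was lower after stimulation in both genotypes. Each library was made from 10 ng of RNA, so these levels are relative to other transcripts and are not amounts per cell. In CD18wt Treg, Itgb2 exon reads fell by 0.77 (SE 0.13, adjusted p = 0.000292) and Itgal exon reads by 1.10 (SE 0.14, adjusted p = 3.98e-05) on the log2 scale (edgeR quasi-likelihood test). In CD18Foxp3 Treg the log2 changes were -0.85 for Itgb2 (SE 0.15, adjusted p = 0.00111) and -1.16 for Itgal (SE 0.11, adjusted p = 2.56e-05). Each of the 4 changes passed the threshold, in comparisons in which 33.6% of all genes did so in CD18wt and 38.6% in CD18Foxp3 Treg, 14.9% and 17.6% of all genes as falls. The interaction of genotype and stimulation was -0.09 (SE 0.20) for Itgb2 and -0.07 (SE 0.18) for Itgal on the log2 scale, with adjusted p-values of 0.988 and 0.990. The size of these falls depended on the scale. On the deposited TPM scale the median gene was higher by 0.36 in stimulated CD18wt libraries (log2(TPM + 1)), against 0.02 after TMM normalization, and the Itgb2 change was -0.37 in CD18wt (adjusted p = 0.0153) and -0.50 in CD18Foxp3 Treg (adjusted p = 0.0312, limma), neither past the threshold. Relative to the median gene the Itgb2 change in CD18wt Treg was -0.80 after TMM and -0.73 on the TPM scale. The Itgal change was -0.70 and -0.80 on the TPM scale and passed the threshold in both genotypes. The choice of scale also moved the direction of calls over all genes, with 44.3% of them falls in CD18wt Treg after TMM and 19.3% on the TPM scale, and 45.7% and 24.1% in CD18Foxp3 Treg. Marker levels of other cells moved with stimulation as well. The summed B cell markers were at 10.3 to 19.9 TPM in stimulated CD18wt and 8.79 to 11.9 TPM in stimulated CD18Foxp3 libraries, below all unstimulated libraries of the same genotype, and the myeloid markers were at 0.163 to 1.83 and 0.913 to 1.73 TPM, which overlapped with the unstimulated libraries in CD18Foxp3 Treg. In the 12 libraries, 5 markers of CD8 T and NK cells summed to 13.8 to 38.8 TPM, with Ncr1 at 0 reads throughout, 4 dendritic cell markers to 0.629 to 4.95 TPM, highest in stimulated libraries, and 4 erythroid markers to 0.0813 to 30.9 TPM. The part of these markers in the results was not tested, and fewer cells of a type cannot be told apart from less RNA per cell in such libraries.

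Itgal fell further than Itgb2, and the ratio therefore differed between cultures. The log2 ratio was higher after stimulation by 0.33 in CD18wt and by 0.30 in CD18Foxp3 Treg, a 1.26-fold and 1.23-fold difference (exact two-sided permutation tests, p = 0.1 each). Over both genotypes together the difference was 0.31, or 1.24-fold, with an exact permutation p = 0.005 when the culture labels were permuted within each genotype, the smallest p that the 400 arrangements allow. It was 0.25 when exon-exon reads were used in place of TPM, with the same p. How many other gene pairs would reach this p was not counted. The log2 difference in CD18Foxp3 minus that in CD18wt Treg was -0.03, which was not tested.

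Intron reads, which can come from transcripts that have not been spliced, were tested separately from exon reads. In unstimulated Treg, Itgb2 had 320, 307 and 98 intron reads in the CD18wt libraries and 360, 284 and 370 in the CD18Foxp3 libraries. In stimulated Treg it had 319, 263 and 440 intron reads in CD18wt and 367, 428 and 323 in CD18Foxp3 libraries. The genotypes overlapped in both cultures. The log2 difference between genotypes was 0.21 (SE 0.21, adjusted p = 0.981) without and -0.22 (SE 0.24, adjusted p = 1.00) with stimulation, and the change with stimulation was 0.05 (SE 0.28, adjusted p = 0.930) in CD18wt and -0.41 (SE 0.17, adjusted p = 0.0543) in CD18Foxp3 Treg (edgeR quasi-likelihood test on intron reads). None passed the threshold, nor did any intron change of Itgal, for which the log2 values were 0.03, -0.30, 0.27 and -0.08 in the same order. The intron changes with stimulation depended on the scaling. With the scaling factors of the exon table they were 0.43 in CD18wt and -0.053 in CD18Foxp3 Treg for Itgb2, and 0.71 and 0.28 for Itgal, none past the threshold. In these comparisons 0.0%, 0.0%, 7.8% and 30.4% of genes passed for intron reads. Itgal had 257, 450 and 85 intron reads in unstimulated and 309, 196 and 863 in stimulated CD18wt libraries, a spread wider than that of its exon reads, and 265 to 352 and 346 to 517 in the CD18Foxp3 groups.

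The number of Itgb2 exon reads per intron read was lower in CD18Foxp3 than in CD18wt Treg. Without stimulation there were 28.1, 28.9 and 48.9 exon reads per intron read in the CD18wt and 13.9, 15.9 and 12 in the CD18Foxp3 libraries. With stimulation there were 12.2, 21.9 and 11.8 in the CD18wt and 6.90, 8.00 and 8.86 in the CD18Foxp3 libraries. The genotypes did not overlap in either culture. The log2 difference was -1.30 without and -0.90 with stimulation (exact two-sided permutation tests, p = 0.1 each), against medians of -0.21 and -0.16 over all genes with at least 10 intron reads in each library. Every CD18Foxp3 library lay below every CD18wt library in 8.97% of such genes without stimulation, in 5.75% with it, and in 0.6% of such genes in both cultures. Taken relative to the exon to intron ratio of each whole library, an alternative chosen after seeing the data, the differences were -1.13 and -0.76. Itgal had 85.6, 45.4 and 131 exon reads per intron read in unstimulated CD18wt and 53.5, 60.5 and 52.0 in unstimulated CD18Foxp3 libraries, which overlapped, as did the stimulated libraries, at 21.9, 55.4 and 12.1 in CD18wt and 19.8, 18.2 and 23.4 in CD18Foxp3 Treg. Its log2 differences between genotypes were -0.53 and -0.26 (exact two-sided permutation tests, p = 0.4 and p = 0.8). Stimulated minus unstimulated libraries gave log2 differences of -1.22 for Itgb2 and -1.71 for Itgal in CD18wt Treg, and of -0.81 and -1.44 in CD18Foxp3 Treg. The cultures overlapped for Itgal in CD18wt Treg (p = 0.2) and did not in the other 3 comparisons (p = 0.1 each, exact two-sided permutation tests). Relative to the whole library these differences were -1.02 and -1.5 in CD18wt and -0.65 and -1.28 in CD18Foxp3 Treg, and then no comparison overlapped, Itgal in CD18wt Treg included (p = 0.1 each, exact two-sided permutation tests). For the unadjusted ratio, all libraries lay lower after stimulation in 17.6% of genes in CD18wt and 31.4% in CD18Foxp3 Treg. The medians of its differences over all genes were -0.22 and -0.25. The share of genes for the ratio relative to the whole library was not counted.

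**Figure D3:**
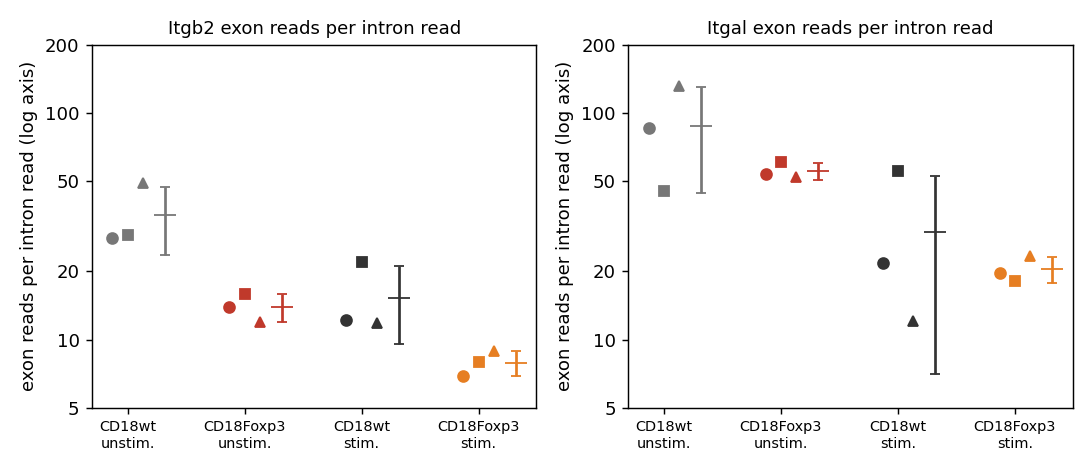
Exon reads per intron read of Itgb2 (left) and Itgal (right) in each library on a log axis, with symbols for replicates 1, 2 and 3 and a dash with bars for the mean and SD (n = 3). For Itgb2 the CD18Foxp3 libraries lie at 12 to 15.9 without and 6.90 to 8.86 with stimulation, below the CD18wt libraries of the same culture, whereas for Itgal the genotypes overlap.

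The share of exon reads that crossed an exon-exon junction was taken as a measure of spliced RNA among the Itgb2 reads. It was 32.0%, 32.8% and 31.1% in unstimulated CD18wt and 31.6%, 31.6% and 31.8% in unstimulated CD18Foxp3 libraries, which overlapped (difference -0.32 percentage points, exact two-sided permutation test, p = 0.7). In stimulated Treg it was 31.6%, 32.9% and 33.1% in CD18wt and 28.6%, 31.3% and 29.8% in CD18Foxp3 libraries, which did not overlap (difference -2.64 percentage points, exact two-sided permutation test, p = 0.1). Every CD18Foxp3 library was lower in 5.41% of the genes with at least 100 exon reads in each stimulated library. For comparison, 29.9% of the 59-base words of Itgb2-201 span a junction, and 28.8% do once exon 3 is removed. The share for Itgal was 33.3% to 38.1% over the 12 libraries. It was higher in every unstimulated CD18Foxp3 than in every unstimulated CD18wt library, by 0.97 percentage points (p = 0.1), as in 6.29% of genes, and overlapped between genotypes after stimulation (p = 0.5, exact two-sided permutation tests).

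The tables also count the annotated transcripts of a gene that hold reads placed on them alone, without naming them. Of the 5 Itgb2 transcripts, 4, 4 and 4 were so identified in unstimulated and 4, 4 and 5 in stimulated CD18wt libraries. In CD18Foxp3 libraries it was 3, 2 and 3 without and 2, 2 and 2 with stimulation. The number was lower in every CD18Foxp3 library in both cultures, which held for 0.33% of genes with several transcripts without stimulation, 0.537% with stimulation and 0.02% (2 of 9987) in both. This count, examined after seeing the data, can fall with the number of Itgb2 reads, whose mean was also lower in both CD18Foxp3 groups. Read numbers overlapped without stimulation, where CD18wt replicate 3 had 4796 exon reads and 4 transcripts, and CD18Foxp3 replicate 1 had 4992 and 3. With stimulation they did not, at 3895 or more in CD18wt and 3423 or fewer in CD18Foxp3 libraries. The part of read number in the count was not tested. Among the 59-base words of the annotation, 395 occurred in Itgb2-201 alone, none of them with a base of exon 3, and 55 in Itgb2-202 alone, all across the join of exon 2 to exon 4. Itgb2-205 had 174 words of its own, 58 of them with bases of exon 3, and was the only transcript with such words. For Itgal, 3 or 4 of 6 transcripts were identified in each library, and the genotypes overlapped or shared values in both cultures.

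**Figure D4:**
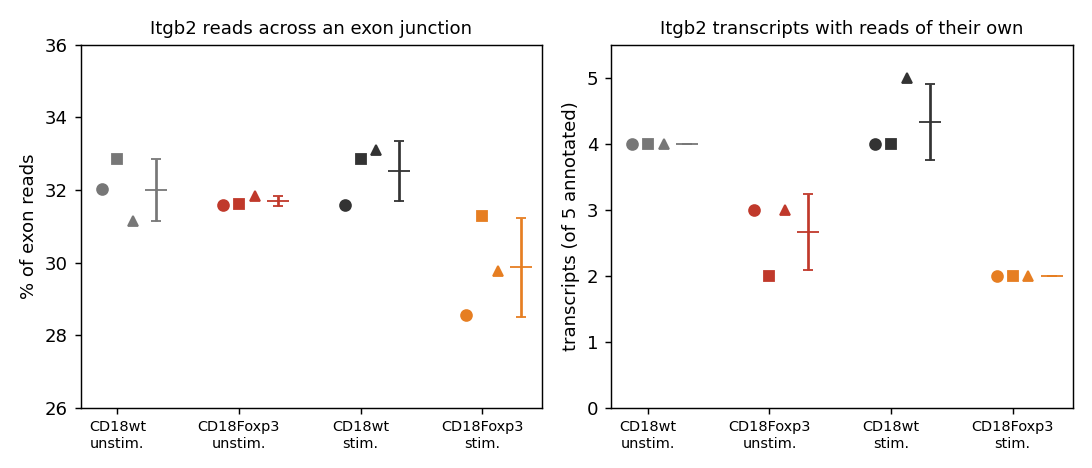
Share of Itgb2 exon reads that cross an exon-exon junction, in percent on an axis that does not start at 0 (left), and number of the 5 annotated Itgb2 transcripts with reads of their own (right), per library, with the mean and SD (n = 3). The junction share is 28.6% to 31.3% in stimulated CD18Foxp3 libraries and 31.1% to 33.1% in the others, and the transcript count is 2 or 3 in CD18Foxp3 and 4 or 5 in CD18wt libraries.

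The other α chains that pair with CD18 were near the limit of detection. Itgam, the α chain of Mac-1, had 3, 12 and 2 exon reads in unstimulated CD18wt and 14, 19 and 30 in unstimulated CD18Foxp3 libraries, and 0 to 3 in each stimulated library. Itgax, the α chain of CD11c/CD18, had at most 2 reads in each library except stimulated CD18wt replicate 2, which had 19. Itgad had at most 6 reads in any library and 0 in all stimulated ones. A count of 0 still allows up to 3 reads, a limit that covers counting error only. All 3 were under 1 TPM in every library, where Itgal had at least 205 TPM.

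The rest of the LFA-1 pathway was examined in a list of 30 genes, namely other α chains, ligands, activators of the integrin, genes that restrain it, and downstream signalling genes. No listed gene passed the threshold between genotypes, 0 of 27 tested without and 0 of 26 with stimulation (edgeR quasi-likelihood test), where 0.135% and 0.0% of all genes did, and none was past an adjusted p of 0.05. The lowest adjusted p was 0.244, for Icam1 (log2 difference 0.43, SE 0.13) in unstimulated Treg. The median log2 difference over the list was 0.00 and -0.05, against 0.00 over all genes in both cultures. With stimulation 14 listed genes fell and 1 rose in each genotype, of 26 tested in CD18wt and 27 in CD18Foxp3 Treg. Of all genes, 14.9% fell and 18.7% rose in CD18wt and 17.6% fell and 20.9% rose in CD18Foxp3 Treg. The median log2 change of the list was -0.67 and -0.79 where that of all genes was 0.02 and 0.01. On the TPM scale (log2(TPM + 1), limma) the falls were 5 and 7 instead of 14, with 1 rise in each genotype, where 7.19% and 9.99% of all genes fell and 30.1% and 31.5% rose.

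Among activators, Skap1 and Fyb, adaptors that link the T cell receptor to Rap1, fell in both genotypes. The log2 change of Skap1 was -1.59 (SE 0.15) in CD18wt and -1.4 (SE 0.10) in CD18Foxp3 Treg, and that of Fyb -1.53 (SE 0.16) and -1.48 (SE 0.10). Apbb1ip (RIAM) and Rassf5 (RAPL), which carry the Rap1 signal to the integrin, Stk4 (Mst1), Rasgrp1, Cyth1 and Tln1 (talin, which binds the β chain tail) also fell in both genotypes, Tln1 with log2 changes of -0.69 and -0.79. Fermt3 (kindlin-3), which also binds the β chain, fell in CD18wt Treg (-0.65, SE 0.13, adjusted p = 0.00119) and was at -0.70 (SE 0.21, adjusted p = 0.0201) in CD18Foxp3 Treg, a pair of values whose difference did not pass the interaction test. Rap1a and Rapgef1 did not pass in either genotype, with log2 changes of -0.17 to 0.16, nor did Rap1b, at -0.53 (adjusted p = 0.00399, under the 1.5-fold limit) and -0.48 (adjusted p = 0.0116, edgeR quasi-likelihood test). Among genes that hold LFA-1 back, Rasa3, a GTPase-activating protein for Rap1, fell in both genotypes (-1.47, SE 0.16, and -1.66, SE 0.12), and Sipa1 and Flna (filamin A) also fell in both genotypes. Of the ligands, Icam2 fell in both (-1.15, SE 0.16, and -1.32, SE 0.11), while Icam1 was at 0.19 (SE 0.14) and -0.10 (SE 0.16) without passing. Downstream, Ptk2b (Pyk2) fell in both (-0.76 and -0.89), and Vcl (vinculin), which links talin to actin, rose by 2.83 (SE 0.40) in CD18wt and by 2.00 (SE 0.21) in CD18Foxp3 Treg. Itgam was the remaining fall, in CD18Foxp3 Treg, from the few reads given above, some of which had not been placed uniquely. All these changes were taken after TMM normalization, and on the TPM scale fewer of the falls passed. In CD18wt Treg, for example, mean Tln1 went from 260 to 214 TPM and mean Skap1 from 118 to 51.9 TPM. Falls in this list after TMM included both activators and genes that restrain the integrin.

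**Figure D5:**
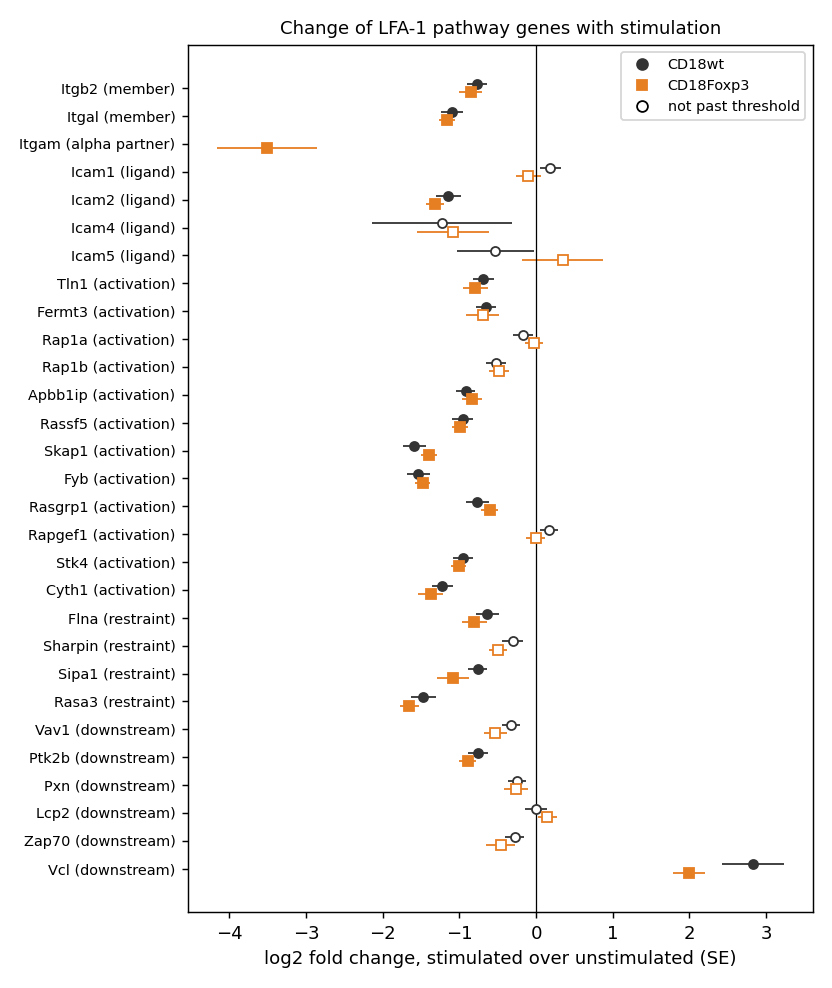
Log2 fold change of Itgb2, Itgal and the tested genes of the LFA-1 list in stimulated over unstimulated Treg, from edgeR on exon reads with TMM normalization, with bars of 1 SE, circles for CD18wt and squares for CD18Foxp3, and open symbols for genes not past the threshold. Most points lie left of 0 in both genotypes, Itgb2 at -0.77 and -0.85 and Itgal at -1.10 and -1.16, and Vcl lies at 2.83 and 2.00.

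Across the 12 libraries, the genes whose level followed each member most closely were sought among 7752 others with a mean of at least 10 TPM, by Pearson's r of log2(TPM + 1). For Itgb2 they were Plekho1 (r = 0.894), Pou2af1 (0.885), 2310033P09Rik (0.877), Fam43a (0.852) and Pacsin1 (0.848). Pou2af1, a transcriptional coactivator best known from B cells, went from 26.3 ± 3.27 to 9.63 ± 1.59 TPM between unstimulated CD18wt and CD18Foxp3 Treg and from 12.1 ± 2.19 to 6.15 ± 1.12 TPM between the stimulated groups (SD, n = 3 each). For Itgal they were Cd4 (r = 0.970), Ramp1 (0.967), Tox2 (0.967), Ubash3a (0.965) and Dtx1 (0.964), all of them lower after stimulation. Cd4, the coreceptor by which the cells had been sorted, went from 614 ± 43.4 to 366 ± 18.6 TPM in CD18wt and from 592 ± 20.5 to 321 ± 36.6 TPM in CD18Foxp3 Treg. Itgal ranked 79th in likeness to Itgb2 (r = 0.709), and Itgb2 ranked 1080th in likeness to Itgal. These correlations describe 12 libraries that share 4 groups and their scaling, and carry no test.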

How the data were processed

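RNA of 12 libraries was poly(A)-selected from 10 ng of total RNA, amplified by 15 PCR cycles and sequenced as 59-base single reads. The authors mapped the reads to GRCm38 and deposited, for each gene and library, raw counts of exon, exon-exon and intron reads, and the authors also deposited TPM, computed from exon counts and exon length. RPKM columns were not used. Libraries were grouped by the sample labels. Counts were tested with edgeR 4.0.16 in R 4.3.3 (filterByExpr with a minimum count of 10, TMM, quasi-likelihood F-test with robust dispersion, Benjamini-Hochberg adjustment over all genes tested), separately for exon and intron reads, and a gene was called at a 1.5-fold change with an adjusted p not above 0.01. The SE is the log2 fold change divided by the square root of F. Ratios and shares were compared by exact two-sided permutation tests (scipy 1.17.1). Alternatives were DESeq2 1.42.0, limma 3.58.1 on log2 TPM with 1 or 0.1 added, other scalings and filters, uniquely placed reads, a replicate block, and each library left out. Exon lengths and 59-base words came from the GENCODE M21 annotation of GRCm38, and the sequence of exon 3 is not reported here. Count tests were tested on simulated data. The members and gene lists were chosen with earlier results of these data known. Named genes were the members, list genes past the threshold, the other α chains, and the 5 genes most like each member, and further list genes were named after their values were seen. Intervals and limits cover counting error only.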

Additional observations from a re-analysis of the deposited data

How the results depend on the processing

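Of the alternatives on exon reads, the following changed a call for Itgb2. Between genotypes without stimulation, the call was lost with limma on log2(TPM + 1) (-0.83, adjusted p = 0.0172) and on log2(TPM + 0.1) (-0.83, 0.0166), and with all 12 libraries in 1 fit (-0.85, 0.0391). Between genotypes with stimulation, it was gained with DESeq2 (-0.94, 0.000366) and without a filter on low counts (-0.93, 0.000152). For stimulation it was lost in CD18wt Treg with total exon reads as the only scaling (-0.58, a change under 1.5-fold) and with limma (-0.37 at both pseudocounts), and in CD18Foxp3 Treg with limma (-0.50 at both). Itgal kept its calls under all of these settings. The sign of the Itgal intron change with stimulation in CD18Foxp3 Treg turned to 0.28 with the scaling factors of the exon table. The cause of these changes was not tested.

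Leaving out each library gave -0.92 to -0.80 for Itgb2 exon reads between unstimulated genotypes, without the call in 5 of 6 cases. Both genes kept the calls for stimulation. Signs turned for values close to 0 or widely spread, none of them past a threshold. The ranges were -0.13 to 0.33 (Itgal introns, genotype, unstimulated), -0.57 to 0.19 (the same, stimulated, positive without CD18wt replicate 3), -0.050 to 0.15 (Itgb2 introns, stimulation, CD18wt), -0.19 to 0.57 (Itgal introns, stimulation, CD18wt, negative without stimulated replicate 3), -0.18 to 0.022 (Itgal introns, stimulation, CD18Foxp3), and, for the interaction, -0.20 to 0.066 (Itgb2 exons), -0.15 to 0.018 (Itgal exons) and -0.67 to 0.13 (Itgal introns). They were -0.77 to 0.33 for the log2 exon to intron ratio of Itgal between stimulated genotypes, and, in percentage points of the exon-exon share, -0.75 to 0.10 (Itgb2, genotype, unstimulated), -1.97 to 0.12 (Itgal, genotype, stimulated) and -0.89 to 1.20 (Itgal, stimulation, CD18Foxp3).

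Replicate numbers recur in the 4 groups, but the labels do not say that they mark the same mouse. Across cultures, same-numbered libraries had correlations of 0.10, -0.02 and -0.09 in CD18wt Treg, where other pairs ran from -0.12 to 0.11. The highest of these other pairs were unstimulated replicate 3 with stimulated replicate 2, at 0.11, and unstimulated replicate 2 with stimulated replicate 3, at 0.10. In CD18Foxp3 Treg they had 0.14, 0.07 and 0.15, above all other pairs, at -0.12 to -0.02. The numbers thus matched throughout in CD18Foxp3 Treg only and were not taken as pairs. Whether cells of the same mice were split over the cultures is not stated, and the main tests ignore any such pairing. With the replicate number as a block, the exon changes of Itgb2 were -0.86 between unstimulated genotypes (adjusted p = 0.000570), -0.77 for stimulation in CD18wt and -0.87 in CD18Foxp3 Treg, and no call of either gene changed, while the genes called between unstimulated genotypes rose from 16 to 41. The ratio kept its difference of 0.31 over both genotypes under the block (exact sign-flip test, p = 0.0312).

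Over all genes, the count past the threshold between unstimulated genotypes was 86 with DESeq2, 134 without a filter, 1 and 5 with limma, 33 at an adjusted p of 0.05 and 0 with all 12 libraries in 1 fit. For intron reads with stimulation in CD18wt Treg it was 740, against 195 with the scaling factors of the exon table and 188 with the replicate block, and between stimulated genotypes 0, against 3 with the block. A single comparison of 3 libraries with 3 cannot reach an exact permutation p under 0.1. Itgb2 had 98 to 440 and Itgal 85 to 863 intron reads a library.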
